A study of Mus musculus with 12 samples.

Results

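Notch is the pathway by which neighbouring cells of an epithelium read each other's surface. A ligand of the Jagged or Delta-like family on one cell binds a Notch receptor on the next, ADAM and γ-secretase proteases then cut the receptor, and its freed intracellular domain joins the DNA-binding factor Rbpj in the nucleus to switch on genes of the Hes and Hey families, which encode transcriptional repressors. In the mouse lens, Jag1, Notch2 and Rbpj are known to be needed for growth of the epithelium and for differentiation of fiber cells. The 10 genes described here are 3 receptors (Notch1, Notch2 and Notch3), 3 ligands (Jag1, Jag2 and Dll1), Rbpj, and 3 target genes (Hes1, Hey1 and Heyl). They were taken by symbol from the deposited tables, where each had 1 row, and are 10 of the 45859 genes listed. Another 75 genes of the pathway were followed beside them in 5 lists.

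Lens epithelial cells (LCs) left on the capsule after removal of the fiber cells were collected either at once (0 h) or at 24 h post cataract surgery (PCS) from adult mice of 2 months. WT animals were C57BL/6. In the β8ITG-cKO animals, of mixed C57BL/6 and 129S1/Sv strain, a floxed Itgb8 allele was deleted by MLR10-Cre, a transgene active in the lens from its early development, so genotype and strain cannot be told apart. Each of the 4 groups, all of them operated, held 3 libraries made from pooled capsules. Levels are FPKM, fragments scaled for transcript length and library size, so they can be set side by side between genes. Differences are on the log2(FPKM + 1) scale, with 95% intervals in brackets, and a gene passed when its adjusted p was at most 0.05 over all genes tested by limma. The study's methods call the libraries of a group biological replicates.

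Read totals were not used here, so depth is unknown, though the steps between low FPKM gave relative depths of 0.87 to 1.08. The floxed part of Itgb8 is 1 exon, so its whole-gene FPKM does not measure the deletion. Itgb8 was listed at 7.26 to 10.78 FPKM in WT 0 h, 8.38 to 9.58 in WT 24 h, 4.58 to 7.31 in β8ITG-cKO 0 h and 9.28 to 11.83 in β8ITG-cKO 24 h. It did not pass between the genotypes at 24 h (adjusted p = 0.486) or 0 h (adjusted p = 0.209), and passed as higher over time in β8ITG-cKO (log2 difference 0.68, adjusted p = 0.0132). The summed level of 8 lens epithelium markers was 11627 FPKM or more in every library. Most of this sum was the lens crystallins Cryaa (group means 9054 to 27924 FPKM) and Cryab (3409 to 13608). Group means of the other epithelium markers were 22.0 to 142 FPKM. Cryaa had 8385.01 FPKM or more in all libraries but WT 0 h replicate 2, where it was listed at 0. That library also held 1191 FPKM of 10 photoreceptor markers, against 354 and 145 in the other WT 0 h libraries. The same sum ran from 77.7 to 141 in WT 24 h, from 186 to 342 in β8ITG-cKO 0 h and from 878 to 1029 in β8ITG-cKO 24 h, and all 10 markers passed as higher in β8ITG-cKO at 24 h. Sums of 10 leukocyte markers were 6.20 to 11.2 FPKM in the 0 h libraries, 72.0 to 101 in WT 24 h and 39.7 to 74.1 in β8ITG-cKO 24 h, and 6 of 8 tested in WT and 7 of 8 in β8ITG-cKO passed as higher over time. Genes known from neutrophils were among them, such as S100a8 (mean 0 to 13.9 FPKM in WT, 0 to 4.33 in β8ITG-cKO) and Csf3r (0.154 to 9.29, and 0.251 to 6.22), while Ly6g was listed at 0 in every library. Sums of 8 endothelial markers, which mark another cell type rich in Notch, were 4.60 to 7.96 FPKM in WT 0 h, 1.86 to 4.01 in WT 24 h, 6.44 to 9.48 in β8ITG-cKO 0 h and 9.71 to 10.8 in β8ITG-cKO 24 h. Sums of 7 Mueller glia markers were 2994 to 5443 FPKM over all libraries, and those of 6 iris and ciliary pigment cell markers 11.5 to 84.0. Most of the glia sum was Vim (group means 1493 to 4066 FPKM), Apoe (713 to 1219) and Dkk3 (211 to 635). Group means of the other glia markers were 78.3 to 207 for Glul, 9.34 to 24.0 for Aqp4, 3.99 to 12.6 for Slc1a3 and 1.95 to 7.37 for Rlbp1. In bulk samples, fewer cells of a type and less RNA per cell cannot be told apart.

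After surgery the Notch genes split. Jag1 rose and Notch2 and Hey1 fell in both genotypes, while Notch1 passed as higher in WT and Rbpj passed as higher in β8ITG-cKO. Of the 9 members tested, 4 passed between 0 h and 24 h in WT (2 higher, 2 lower) against 29.7% of all genes tested, and 4 passed in β8ITG-cKO (2 higher, 2 lower) against 46.1%. The WT count was 2 without WT 0 h replicate 1, WT 0 h replicate 2 or WT 24 h replicate 2. Over all genes, those fits called 2512, 3224 and 2798, from 4500 with every library. Higher calls made up 20.9% of genes tested in WT and 35.4% in β8ITG-cKO, and lower calls 8.81% and 10.7%. The members' median log2 difference was -0.11 in WT and 0.03 in β8ITG-cKO, beside 0.16 and 0.23 over all genes. The same members had an unadjusted p under 0.05, as did 42.6% of all genes in WT and 53.7% in β8ITG-cKO. Libraries of the 2 times did not overlap for 5 members in WT (those 4 and Notch3) and 4 in β8ITG-cKO, against 46.9% and 56.9% of all genes. With additional criteria, namely means that differ by a fold above 2 and by more than 2 FPKM with the larger not under 2 FPKM, Jag1 and Hey1 were called in each genotype, against 14.3% of all genes in WT and 15.1% in β8ITG-cKO.

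**Figure D1:**
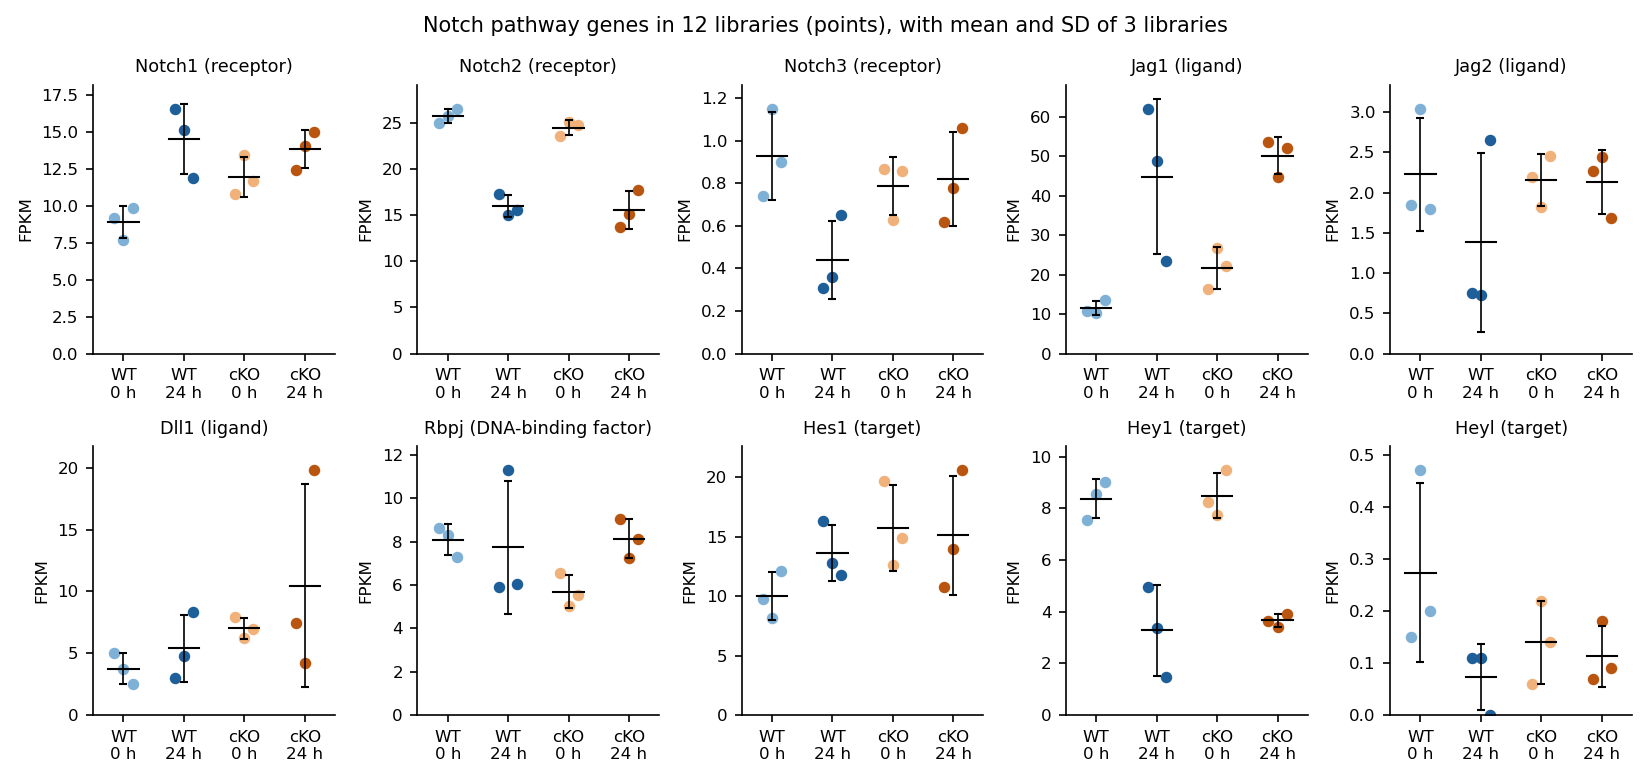
FPKM of the 10 Notch genes (vertical axes, each from 0) in the 12 libraries, by genotype and time after surgery; points are libraries, horizontal lines are means and bars are SD of 3 libraries. Notch2 and Hey1 were lower at 24 h in both genotypes and Jag1 was higher, with no overlap between 0 h and 24 h libraries.

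Notch2 had the highest mean of the receptors in every group, although Notch1 was slightly above it in WT 24 h replicate 2. Notch2 stood at 24.95, 25.80 and 26.52 FPKM in WT 0 h, at 17.30, 15.03 and 15.53 in WT 24 h, at 23.55, 25.14 and 24.83 in β8ITG-cKO 0 h and at 13.74, 15.15 and 17.77 in β8ITG-cKO 24 h. Every 24 h library lay below every 0 h library, whatever the genotype. The mean went from 25.8 ± 0.786 to 16.0 ± 1.20 FPKM in WT (SD, n = 3; log2 difference -0.66 [-0.95 to -0.37], adjusted p = 0.00781) and from 24.5 ± 0.844 to 15.6 ± 2.04 in β8ITG-cKO (-0.63 [-0.89 to -0.38], adjusted p = 0.00268). These falls passed under all 12 alternatives in each genotype. Between the genotypes Notch2 did not pass at either time, with intervals of the log2 difference of -0.28 to 0.14 at 0 h and -0.36 to 0.28 at 24 h, and the difference between the genotypes' changes was 0.03 [-0.31 to 0.37]. The gene's locus is chr3:98013538-98150367 (mm10), which also holds Gm40103. Starts, here and for the other members, count from the first base and were converted from those in the files.

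Notch1, the receptor known for its part in blood and skin cell fate, moved the other way in WT. Its FPKM were 9.16, 7.72 and 9.84 in WT 0 h, 16.57, 15.13 and 11.92 in WT 24 h, 10.79, 13.46 and 11.71 in β8ITG-cKO 0 h and 12.45, 14.04 and 15.00 in β8ITG-cKO 24 h. The WT libraries did not overlap between times, and the WT 0 h libraries were below all others. In WT the rise was 1.63-fold in the mean (log2 difference 0.64 [0.26 to 1.03], adjusted p = 0.0245). It missed the threshold when libraries were rescaled to the same median (0.40, adjusted p = 0.107) and without any 1 of WT 0 h replicates 1 and 2 or WT 24 h replicates 1 and 2 (adjusted p 0.0732 to 0.0774). In β8ITG-cKO the difference over time was 0.19 [-0.08 to 0.46] (adjusted p = 0.209), and -0.09 after rescaling. The difference between the changes, -0.45 [-0.89 to -0.01], had an unadjusted p of 0.0454 and an adjusted p of 0.194. Notch1 lies at chr2:26409431-26503822, in a block with Sec16a, 0610009E02Rik and Mir6996.

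Notch3, known from mural cells of blood vessels, was near the lowest level that could be tested. It read 0.74, 1.15 and 0.90 FPKM in WT 0 h, 0.31, 0.36 and 0.65 in WT 24 h, 0.87, 0.63 and 0.86 in β8ITG-cKO 0 h and 0.62, 0.78 and 1.06 in β8ITG-cKO 24 h. WT 24 h libraries were below those of WT 0 h, while the β8ITG-cKO libraries overlapped. The WT difference of -0.43 [-0.86 to 0.01] did not pass (adjusted p = 0.123), although it did in 1 fit over all groups (adjusted p = 0.0468). Its locus is chr17:32113837-32166896, shared with Gm38585 and Gm41568.

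Within a library, the receptors came closer together after surgery. The ratio of Notch1 to Notch2 was 0.37, 0.30 and 0.37 in WT 0 h and 0.96, 1.01 and 0.77 in WT 24 h. It was 0.46, 0.54 and 0.47 in β8ITG-cKO 0 h and 0.91, 0.93 and 0.84 in β8ITG-cKO 24 h. This ratio does not depend on the scaling of a library. It was chosen after the values were seen and is given without a test. Notch2 made up 64.1% to 74.4% of the FPKM of the 3 receptors at 0 h and 49.3% to 55.3% at 24 h.

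Jag1, the ligand with known roles in lens growth, rose more than any other member in both genotypes. Its levels were 10.82, 10.26 and 13.50 FPKM in WT 0 h and 61.94, 48.88 and 23.40 in WT 24 h. In β8ITG-cKO they were 16.26, 26.82 and 22.05 at 0 h and 53.45, 44.69 and 52.00 at 24 h. All 24 h libraries of a genotype were above its 0 h libraries, but WT 24 h replicate 3 stood well below its companions, within the range of the β8ITG-cKO 0 h libraries. The WT rise was 3.88-fold in the mean (log2 difference 1.77 [1.01 to 2.53], adjusted p = 0.00693) and the β8ITG-cKO rise 2.31-fold (1.19 [0.79 to 1.59], adjusted p = 0.00116), and both passed under all 12 alternatives.

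At 0 h Jag1 was higher in β8ITG-cKO. Every β8ITG-cKO library was above every WT library, and the mean was 21.7 ± 5.29 against 11.5 ± 1.73 FPKM (SD, n = 3; log2 difference 0.84 [0.41 to 1.27], adjusted p = 0.0381). Jag1 was the 1 member of 9 to pass at 0 h, beside 6.94% of all genes tested (4.18% higher and 2.75% lower), and it did not meet the additional criteria, which 2.52% of genes met. This call was lost under 8 of 12 alternatives, among them 1 fit over all groups (adjusted p = 0.12), the replicate block (0.0764), and the fits without WT 0 h replicate 1 (0.12), WT 0 h replicate 2 (0.084), β8ITG-cKO 0 h replicate 2 (0.107) or β8ITG-cKO 0 h replicate 3 (0.137). At 24 h the genotypes overlapped (0.26 [-0.50 to 1.02], adjusted p = 0.706). The β8ITG-cKO change minus the WT change was -0.58 [-1.48 to 0.32] (adjusted p = 0.432), and without WT 24 h replicate 3 it was -0.98 (adjusted p = 0.0374). The 0 h comparison and the time comparisons share their 0 h libraries. Markers of several cell types also differed between the genotypes at 0 h. Of 8 lens epithelium markers 3 passed as higher in β8ITG-cKO, with Foxe3, a transcription factor of that epithelium, at a mean of 74.3 FPKM in WT and 142 in β8ITG-cKO. Sums of 6 corneal epithelium markers were 213 to 271 FPKM in WT and 539 to 921 in β8ITG-cKO (1 of 3 tested passed as higher). Nearly all of this sum was Aldh3a1, with means of 240 FPKM in WT and 734 in β8ITG-cKO. The defining keratin Krt12 had means of 0.488 and 0.103. The mean of Krt5 was also lower in β8ITG-cKO, and those of Krt14 and Krt15 were higher. Sums of 7 pericyte markers were 12.5 to 13.5 and 20.9 to 25.8 FPKM (1 of 4 passed as higher), and most of each was Pdgfrb. The corneal and pericyte sums thus follow mainly 1 gene each, and the amount of either cell type was not tested. The part of any of these cell types in the 0 h values of Jag1, and in those of Lfng and Ncstn given further on, was not tested. The Jag1 locus, chr2:137081451-137116520, holds no other gene of the files.

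Dll1, a Delta-like ligand, was widely spread at 24 h. It was listed at 5.03, 3.70 and 2.52 FPKM in WT 0 h, 3.02, 4.79 and 8.34 in WT 24 h, 7.92, 6.20 and 6.94 in β8ITG-cKO 0 h and 7.41, 4.20 and 19.79 in β8ITG-cKO 24 h. Single libraries of each 24 h group were high, WT replicate 3 and β8ITG-cKO replicate 3. Over time it did not pass in WT (0.37 [-0.39 to 1.13]) or in β8ITG-cKO (0.28 [-0.73 to 1.29], which turned to -0.27 without β8ITG-cKO 24 h replicate 3). At 0 h the β8ITG-cKO libraries were all above the WT libraries (0.78 [0.32 to 1.25], adjusted p = 0.0582). That difference passed with a minimum mean of 2 FPKM (adjusted p = 0.0483) and after rescaling (0.0433). Dll1 lies at chr17:15367354-15376048.

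Jag2 was the lowest of the 3 ligands on average. Its FPKM were 1.85, 3.04 and 1.80 in WT 0 h, 0.75, 0.73 and 2.66 in WT 24 h, 2.20, 1.82 and 2.45 in β8ITG-cKO 0 h and 2.27, 2.44 and 1.69 in β8ITG-cKO 24 h. WT 24 h replicate 3 again stood apart from the other WT 24 h libraries. No comparison passed with all libraries; without WT 24 h replicate 3, Jag2 passed as lower at 24 h in WT (-0.87, adjusted p = 0.0251) and as higher in β8ITG-cKO than in WT at 24 h (0.84, adjusted p = 0.0408). The locus is chr12:112907803-112929517, with Mir6941.

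Jag1 accounted for most of the ligand FPKM in every library. Its share of Jag1, Jag2 and Dll1 together was 61.1%, 60.4% and 75.7% in WT 0 h and 94.3%, 89.9% and 68.0% in WT 24 h. In β8ITG-cKO it was 61.6%, 77.0% and 70.1% at 0 h and 84.7%, 87.1% and 70.8% at 24 h. The groups overlapped in both genotypes, through replicate 3 at 24 h in each.

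**Figure D2:**
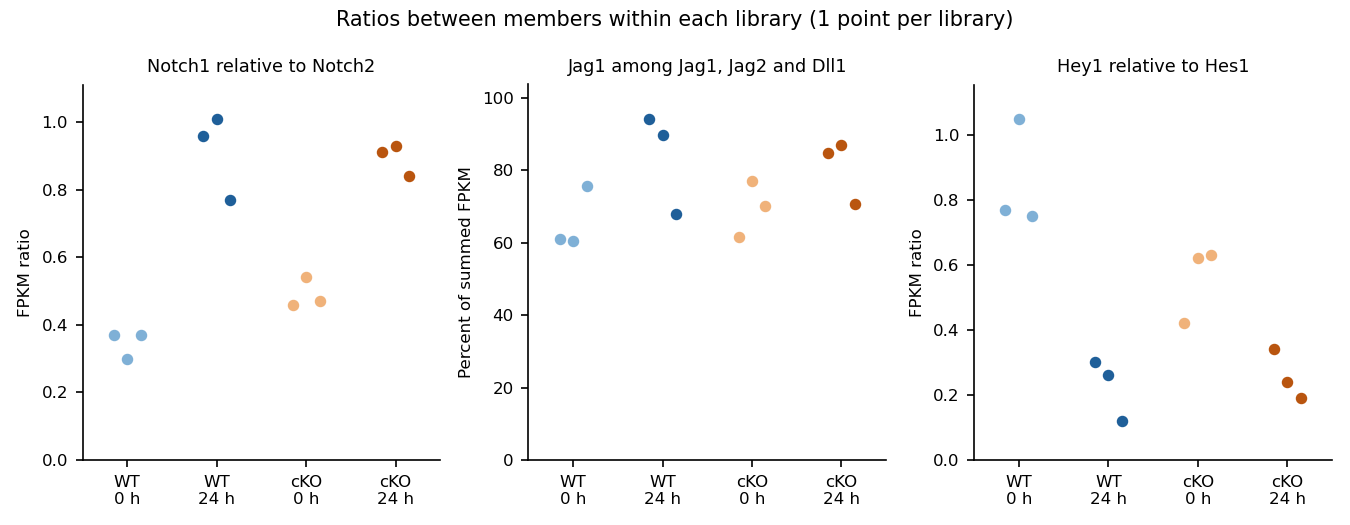
Ratios between members in the same library (1 point per library, by genotype and time): Notch1 over Notch2 FPKM, Jag1 as percent of the summed FPKM of 3 ligands, and Hey1 over Hes1 FPKM. The Notch1 to Notch2 ratio lay between 0.30 and 0.54 at 0 h and between 0.77 and 1.01 at 24 h.

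Rbpj, the factor through which cleaved Notch reaches DNA, did not pass over time in WT. Its levels were 8.65, 8.33 and 7.28 FPKM in WT 0 h and 5.90, 11.29 and 6.04 in WT 24 h. In β8ITG-cKO they were 6.54, 5.02 and 5.53 at 0 h and 9.04, 7.24 and 8.13 at 24 h. The β8ITG-cKO 0 h libraries were below the WT 0 h and the β8ITG-cKO 24 h libraries without overlap, and the WT 24 h libraries were widely spread with replicate 2 highest. Over time the difference was -0.11 [-0.66 to 0.44] in WT and 0.45 [0.15 to 0.74] in β8ITG-cKO, and the latter passed (adjusted p = 0.0219). The β8ITG-cKO rise missed the threshold after rescaling (0.19, adjusted p = 0.275), in 1 fit over all groups (0.0955) and without β8ITG-cKO 0 h replicate 2 (0.0691), 0 h replicate 3 (0.0684), 24 h replicate 1 (0.0689) or 24 h replicate 3 (0.0509).

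At 0 h Rbpj was -0.44 [-0.74 to -0.14] in β8ITG-cKO relative to WT (adjusted p = 0.083, and 0.0457 after rescaling). The difference between the changes over time was 0.56 [-0.06 to 1.17] (adjusted p = 0.258), and 0.83 (adjusted p = 0.0246) without WT 24 h replicate 2. Rbpj covers chr5:53466115-53657445 together with Gm40304.

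Among the target genes, Hey1 fell and Hes1 did not pass in any comparison. Hey1, a repressor best known from heart and vessel development, was listed at 7.56, 8.57 and 9.02 FPKM in WT 0 h and at 4.97, 3.37 and 1.48 in WT 24 h. Its β8ITG-cKO levels were 8.26, 7.75 and 9.47 FPKM for 0 h, and 3.65, 3.40 and 3.93 for 24 h. All 24 h libraries were below all 0 h libraries. The WT fall was 2.56-fold in the mean (log2 difference -1.22 [-1.92 to -0.53], adjusted p = 0.0199) and the β8ITG-cKO fall 2.32-fold (-1.02 [-1.28 to -0.76], adjusted p = 3.02e-04). The β8ITG-cKO fall passed under all 12 alternatives. The WT fall missed the threshold with no filter on low values (adjusted p = 0.066) and without WT 0 h replicate 1 (0.0519), 2 (0.0575) or 3 (0.0616) or WT 24 h replicate 2 (0.0514). Genotypes did not differ detectably in Hey1 at 0 h (0.02 [-0.26 to 0.29]) or 24 h (0.22 [-0.49 to 0.92]). Its locus is chr3:8663359-8667038.

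Hes1, a repressor that keeps progenitor cells undifferentiated in many tissues, had 9.78, 8.16 and 12.11 FPKM in WT 0 h, 16.33, 12.79 and 11.81 in WT 24 h, 19.71, 12.59 and 14.91 in β8ITG-cKO 0 h and 10.77, 13.97 and 20.58 in β8ITG-cKO 24 h. The WT 0 h libraries were below the β8ITG-cKO 0 h libraries, and other pairs of groups overlapped. Differences were 0.41 [-0.02 to 0.85] over time in WT (adjusted p = 0.131), -0.08 [-0.63 to 0.47] in β8ITG-cKO, 0.60 [0.16 to 1.03] between genotypes at 0 h (adjusted p = 0.103) and 0.10 [-0.45 to 0.66] at 24 h. Within libraries the ratio of Hey1 to Hes1 was 0.42 to 1.05 at 0 h and 0.12 to 0.34 at 24 h, again a description with no test. The gene lies at chr16:30065357-30067796.

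Heyl, a relative of Hey1, averaged 0.274, 0.0734, 0.140 and 0.113 FPKM in WT 0 h, WT 24 h, β8ITG-cKO 0 h and β8ITG-cKO 24 h. No library exceeded 0.47 FPKM and WT 24 h replicate 3 was listed at 0. It fell below the minimum mean of 0.5 FPKM and was not tested. Its position is chr4:123233556-123249870.

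**Figure D3:**
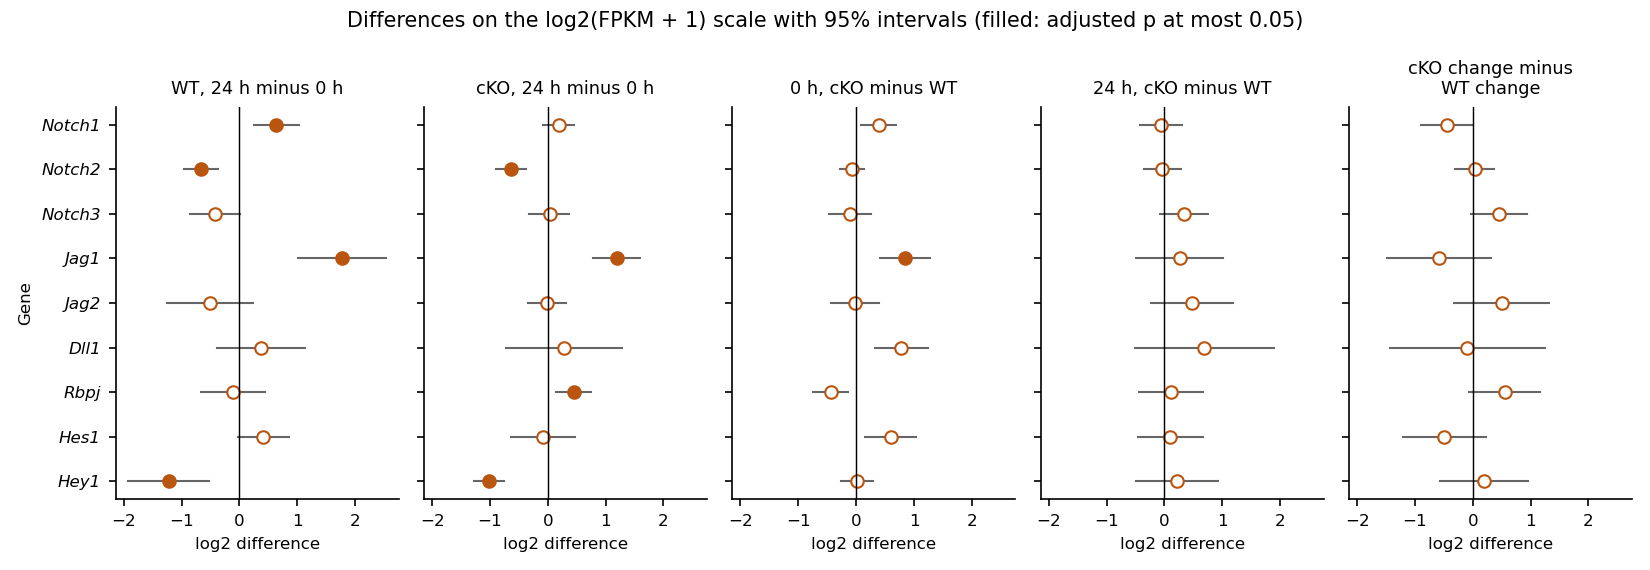
Log2 differences (points) with 95% intervals (lines) of the 9 members tested, on the log2(FPKM + 1) scale, for the 4 pairwise comparisons and for the difference between the genotypes' changes over time; filled points passed at an adjusted p of at most 0.05. Passed points lie mostly in the time comparisons, and the 24 h genotype comparison and the difference of changes hold none.

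The order of levels within a condition also shifted with time. At 0 h in WT, Notch2 was highest (25.8 FPKM) and did not overlap Jag1 (11.5), which was followed by Hes1, Notch1, Hey1 and Rbpj, neighbours whose ranges overlapped. In β8ITG-cKO at 0 h Notch2 (24.5) and Jag1 (21.7) overlapped. At 24 h Jag1 was highest in both genotypes, at 44.7 ± 19.6 FPKM in WT and 50.0 ± 4.70 in β8ITG-cKO (SD, n = 3), above Notch2 without overlap. Notch3 and Heyl were the lowest members in all 4 groups.

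Between the genotypes, 0 of the 9 members passed at 24 h, by limma, and 0 had an unadjusted p under 0.05, beside 6.29% (5.64% higher and 0.644% lower in β8ITG-cKO) and 20.4% of all genes tested. The additional criteria were met by 3.66% of genes and by 0 members. The libraries of all 9 overlapped, where 26.5% of all genes did not. Leaving out WT 24 h replicate 3 gave 1 call, Jag2. At 0 h, 5 of 9 members did not overlap between the genotypes (Notch1, Jag1, Dll1 and Hes1 higher in β8ITG-cKO, Rbpj lower), against 30.8% of all genes, and these 5 also had an unadjusted p under 0.05, against 24.0%. The members' median difference at 0 h was 0.02, the same as over all genes. For the difference between the changes over time, 0 of 9 members passed by limma and 1, Notch1, had an unadjusted p under 0.05, beside 9.39% (6.83% positive and 2.56% negative) and 24.2% of all genes tested. That count was 1 without WT 24 h replicate 2 (Rbpj) and 1 without WT 24 h replicate 3 (Jag1).

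The DNA around the transcription start was searched for letters bound by Rbpj and by Hes and Hey proteins. RefSeq promoters of GRCm38.p6, each 300 bases long with 250 before the start, were given for 7 of the 10 members and for 64 of all 85 pathway genes. TGGGAA, the core of the Rbpj site, was found on either strand in 25.6% of 32851 promoters. It was in 1 of the 7 members, Rbpj itself, and in 19 of the 64 pathway genes. The longer GTGGGAA, which contains it, was in 6.38% of all promoters, in 0 of the 7 members and in 8 of the 64 pathway genes. CACGTG, an E-box that Hes and Hey relatives can bind, was in 7.15% of all promoters, 0 of the 7 members and 9 of the 64. A gene counted when any of its promoters matched, while the percentages count single promoters, so the shares are not directly comparable. Stretches of 4 promoters are shown because Rbpj was the member with a match, and because Hes5, Hey2 and Lfng held the longer motif and were among the genes that changed over time in β8ITG-cKO. Capitals mark TGGGAA or its reverse TTCCCA in Rbpj, and GTGGGAA or its reverse TTCCCAC in the other promoters, each read 5′ to 3′ on the gene's strand.
Rbpj (chr5:53590181-53590300, plus strand, upstream of one of its annotated starts): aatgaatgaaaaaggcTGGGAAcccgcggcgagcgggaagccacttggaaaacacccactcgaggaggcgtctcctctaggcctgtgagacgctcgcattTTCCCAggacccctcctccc
Hes5 (chr4:154960683-154960858, plus strand): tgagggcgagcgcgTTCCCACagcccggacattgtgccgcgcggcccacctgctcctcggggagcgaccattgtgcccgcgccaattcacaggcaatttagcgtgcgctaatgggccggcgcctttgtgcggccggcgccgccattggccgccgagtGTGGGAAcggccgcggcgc
Hey2 (chr10:30842954-30843013, minus strand): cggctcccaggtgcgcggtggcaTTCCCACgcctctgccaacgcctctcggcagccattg
Lfng (chr5:140607191-140607250, plus strand): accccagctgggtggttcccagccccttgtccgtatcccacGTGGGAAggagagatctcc
In Lfng the marked letters overlap a CACGTG, and in Hes5 the motif occurs on both strands. Hey2 also holds it on both strands, the other match beginning 4 bases before the start, outside the stretch shown. Hes5 and Lfng fell over time in β8ITG-cKO, and Hey2 rose, but they were picked because they changed. Aph1a (log2 difference 0.10, adjusted p = 0.597), Psen2 (-0.10, 0.659) and Spen (0.02, 0.901) also held the longer motif and did not pass there. Hes7 and Rbpjl held it too and were not tested.

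In the wider pathway, 62 of the 75 other genes could be tested over time. Of these, 23 passed in WT (13 higher, 10 lower) and 34 in β8ITG-cKO (24 higher, 10 lower), or 37.1% and 54.8%, with 29.7% and 46.1% of all genes called. The median log2 difference of the lists together was 0.10 in WT and 0.20 in β8ITG-cKO, beside 0.16 and 0.23 over all genes. Without any 1 of WT 0 h replicates 1, 2 and 3 or WT 24 h replicates 1 and 2, the WT count was 10 to 12. Over all genes, calls in those fits were 2512 to 3382, from 4500 with every library.

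Among other receptors and ligands, 3 of 4 tested passed in WT and 4 of 4 in β8ITG-cKO, where 29.7% and 46.1% of all genes did. Dlk1, a ligand-like protein that binds Notch without the usual receptor-activating domain, averaged 0.0784 ± 0.0673 FPKM in WT 0 h and 0.0992 ± 0.152 in β8ITG-cKO 0 h. At 24 h it averaged 1.86 ± 0.763 in WT and 3.01 ± 1.82 in β8ITG-cKO (SD, n = 3; log2 differences 1.38 and 1.75, adjusted p = 0.00432 and 0.00602). Mfap2, a microfibril protein, fell from 38.6 to 9.16 FPKM in WT (-2.00, adjusted p = 0.00265) and from 57.6 to 14.8 in β8ITG-cKO (-1.97, adjusted p = 0.0067). Dner, a neuronal Notch ligand, fell from 4.96 to 2.12 FPKM in WT (-0.99, adjusted p = 0.0243) and by 0.58 on the log2 scale in β8ITG-cKO (adjusted p = 0.029). The WT fall of Dner was lost without any 1 of the 3 WT 0 h libraries (adjusted p 0.0656 to 0.0709), and the other was lost without β8ITG-cKO 24 h replicate 1 or 2 (0.0757 and 0.079). Notch4, named here after its values were seen, rose in β8ITG-cKO from 0.246 to 0.877 FPKM (0.58, adjusted p = 0.0159) and had the same difference in WT, 0.58, with an adjusted p of 0.0508. Over the same interval 3 of 4 endothelial markers tested passed as higher and 1 as lower in β8ITG-cKO. There Kdr, the VEGF receptor of endothelium, had means of 0.611 and 3.72 FPKM, and Egfl7 of 6.10 and 2.79. In WT 0 of 2 passed as higher and 1 as lower, with means of 1.82 and 0.608 for Kdr and 3.93 and 1.45 for Egfl7. The part of endothelial RNA in the Notch4 values was not tested.

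Of the genes that process ligands and receptors, 17 of 20 were tested, and 3 passed in WT (2 higher, 1 lower) and 9 in β8ITG-cKO (6 higher, 3 lower), or 17.6% and 52.9% beside 29.7% and 46.1% of all genes. Furin, the protease that cuts the Notch precursor on its way to the surface, rose from 18.9 ± 1.78 to 49.2 ± 5.84 FPKM in WT and from 19.1 ± 2.20 to 41.0 ± 2.16 in β8ITG-cKO (SD, n = 3; log2 differences 1.33 and 1.06, adjusted p = 0.00102 and 2.13e-04). Lfng, the glycosyltransferase that alters which ligands a receptor answers to, was 23.42, 22.93 and 24.92 FPKM in WT 0 h and 19.22, 16.52 and 16.45 in WT 24 h. It was 32.50, 53.49 and 42.65 in β8ITG-cKO 0 h and 10.73, 14.71 and 19.79 in β8ITG-cKO 24 h. The β8ITG-cKO 0 h libraries were above those of every other group. Lfng passed as higher in β8ITG-cKO at 0 h (0.80 [0.40 to 1.19], adjusted p = 0.0345) and as lower over time in WT (-0.43, adjusted p = 0.0413) and β8ITG-cKO (-1.46, adjusted p = 0.002). The WT call was lost without any 1 of the 6 libraries (adjusted p 0.0555 to 0.128). The 0 h call was lost without WT 0 h replicates 1, 2 or 3 or β8ITG-cKO 0 h replicates 2 or 3 (0.0611 to 0.126) and with the replicate block (0.0739).

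Ncstn, a γ-secretase subunit, followed the same order. It averaged 20.9 ± 0.567 FPKM in WT 0 h, 30.9 ± 2.29 in β8ITG-cKO 0 h, 19.2 ± 2.26 in WT 24 h and 17.4 ± 1.80 in β8ITG-cKO 24 h (SD, n = 3). Higher in β8ITG-cKO at 0 h (0.54, adjusted p = 0.0236), it fell over time there (-0.79, adjusted p = 8.02e-04) and did not pass in WT (-0.12 [-0.44 to 0.20]). The 0 h call was lost with the replicate block (adjusted p = 0.0826) and without WT 0 h replicate 1 (0.0749), β8ITG-cKO 0 h replicate 2 (0.0866) or replicate 3 (0.11).

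Genes for endocytosis and ubiquitination of Notch components were all tested (13 of 13), with 7 called in WT (5 higher, 2 lower) and 6 in β8ITG-cKO (all 6 higher). These are 53.8% and 46.2%, beside 29.7% and 46.1% of all genes, of which 35.4% were called higher and 10.7% lower in β8ITG-cKO. Numbl, a relative of the Notch inhibitor Numb, rose from 4.46 to 8.97 FPKM in WT and from 4.07 to 8.41 in β8ITG-cKO (0.86 and 0.89, adjusted p = 0.00936 and 4.83e-04). Dtx3l, a Deltex family ubiquitin ligase known from the interferon and DNA damage responses, rose from 1.91 to 4.33 FPKM in WT and from 1.47 to 4.39 in β8ITG-cKO (log2 difference 0.89 in WT, adjusted p = 0.0298, and adjusted p = 8.94e-04 in β8ITG-cKO). Its WT call was lost without WT 0 h replicate 1 or 2 or WT 24 h replicate 2 or 3 (adjusted p 0.0574 to 0.103) and after rescaling (0.086). Dtx1, the Deltex gene often read as a Notch target, was 7.38, 7.04 and 5.85 FPKM in WT 0 h and 2.43, 2.71 and 3.46 in WT 24 h, against 4.30, 4.27 and 4.68 in β8ITG-cKO 0 h and 3.58, 3.70 and 6.06 in β8ITG-cKO 24 h. It fell in WT (-1.01 [-1.39 to -0.62], adjusted p = 0.00458) and gave -0.02 [-0.43 to 0.39] in β8ITG-cKO.

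Of 19 nuclear cofactors tested, 7 passed in WT (4 higher, 3 lower) and 7 in β8ITG-cKO (5 higher, 2 lower), or 36.8% in each, beside 29.7% and 46.1% of all genes. Tle2, a Groucho family corepressor recruited by Hes proteins, went in opposite directions. Its libraries were at 2.79, 2.37 and 2.40 FPKM in WT 0 h, 0.85, 1.52 and 0.91 in WT 24 h, 1.59, 0.94 and 1.09 in β8ITG-cKO 0 h and 2.54, 2.60 and 3.90 in β8ITG-cKO 24 h. Tle2 passed as lower over time in WT (-0.76, adjusted p = 0.0187) and as higher in β8ITG-cKO (0.86, adjusted p = 0.00608). Without WT 0 h replicate 1 or WT 24 h replicate 1 the WT value was -0.71 or -0.68 (adjusted p = 0.0783 or 0.0558).

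Among other target genes, 8 of 9 tested passed in β8ITG-cKO (5 higher, 3 lower) and 3 of 9 in WT (1 higher, 2 lower), or 88.9% and 33.3%, beside 46.1% and 29.7% of all genes. The difference between these shares was not tested. Several of them are known to respond to many other pathways: Myc to growth factors, Bhlhe40 and Bhlhe41 to hypoxia and the circadian clock, and Sox9 to matrix and growth signals. Myc had levels of 1.21, 0.60 and 1.09 FPKM in β8ITG-cKO 0 h and 16.09, 11.90 and 11.10 in β8ITG-cKO 24 h (log2 difference 2.83 [2.42 to 3.25], adjusted p = 3.06e-05). Its WT levels were 11.65, 5.83 and 3.03 FPKM for 0 h, and 15.69, 33.81 and 11.92 for 24 h (1.48 [0.37 to 2.58], adjusted p = 0.0504). Myc at 0 h was lower in β8ITG-cKO than in WT (-1.85, adjusted p = 0.0293), a call lost without WT 0 h replicate 1 or 2 or any 1 of the β8ITG-cKO 0 h libraries (adjusted p 0.0552 to 0.1).

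Bhlhe40 and Bhlhe41, both repressors of the same family as Hes and Hey, were low in β8ITG-cKO at 0 h. Bhlhe40 averaged 38.8 ± 8.36 FPKM in WT 0 h and 11.2 ± 1.22 in β8ITG-cKO 0 h (-1.69 [-2.08 to -1.30], adjusted p = 0.00303), against 46.9 ± 10.1 and 37.8 ± 5.02 at 24 h (SD, n = 3). Bhlhe41 averaged 9.83 ± 1.45 and 3.91 ± 0.565 FPKM at 0 h (-1.14 [-1.47 to -0.81], adjusted p = 0.0064), and 5.41 ± 1.77 and 6.63 ± 0.806 at 24 h. Both 0 h calls held under all 12 alternatives. Sox9 rose in β8ITG-cKO from 13.5 to 31.9 FPKM (1.19, adjusted p = 0.00177) and in WT from 24.2 to 43.5 (0.89, adjusted p = 0.0382). The WT call for Sox9 was lost without WT 0 h replicate 2 or 3 or any 1 of the WT 24 h libraries (adjusted p 0.0602 to 0.11). Gata3, a regulator of fiber cell differentiation in the lens, fell from 5.26 to 1.45 FPKM in β8ITG-cKO (-1.38, adjusted p = 0.00544) and from 3.05 to 1.20 in WT (-0.89, adjusted p = 0.0165), the latter lost without WT 0 h replicate 3 (0.058) or WT 24 h replicate 2 (0.0504).

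Hes5, a direct Notch target in neural tissue, had 1.40, 4.16 and 2.44 FPKM in WT 0 h, 1.16, 1.71 and 0.31 in WT 24 h, 9.45, 5.02 and 6.31 in β8ITG-cKO 0 h and 1.08, 1.66 and 1.15 in β8ITG-cKO 24 h. The β8ITG-cKO 0 h libraries were above all others. It fell in β8ITG-cKO (-1.76 [-2.25 to -1.26], adjusted p = 4.76e-04) and did not pass in WT (-0.82 [-1.64 to -0.01], adjusted p = 0.114) or between genotypes at 0 h (1.14 [0.45 to 1.84], adjusted p = 0.0631). Hes5, Lfng, Gata3 and Mfap2 fell in β8ITG-cKO together with the lens fiber markers, of which 7 of 7 tested passed as lower over time in that genotype, as did 6 of 8 lens epithelium markers. The sum of 8 fiber markers was 5061 to 5584 FPKM in β8ITG-cKO 0 h and 704 to 785 at 24 h. In WT it went from 3691 to 5050 down to 661 to 1347, and 6 of 7 fiber and 2 of 8 epithelium markers passed as lower. Most of the fiber sum was Crygs, with means of 3381 and 792 FPKM at 0 h and 24 h in WT. Its means in β8ITG-cKO were 4112 and 565. The part of fiber or epithelial cell RNA in these falls, and in those of Notch2 and Hey1, was not tested.

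**Figure D4:**
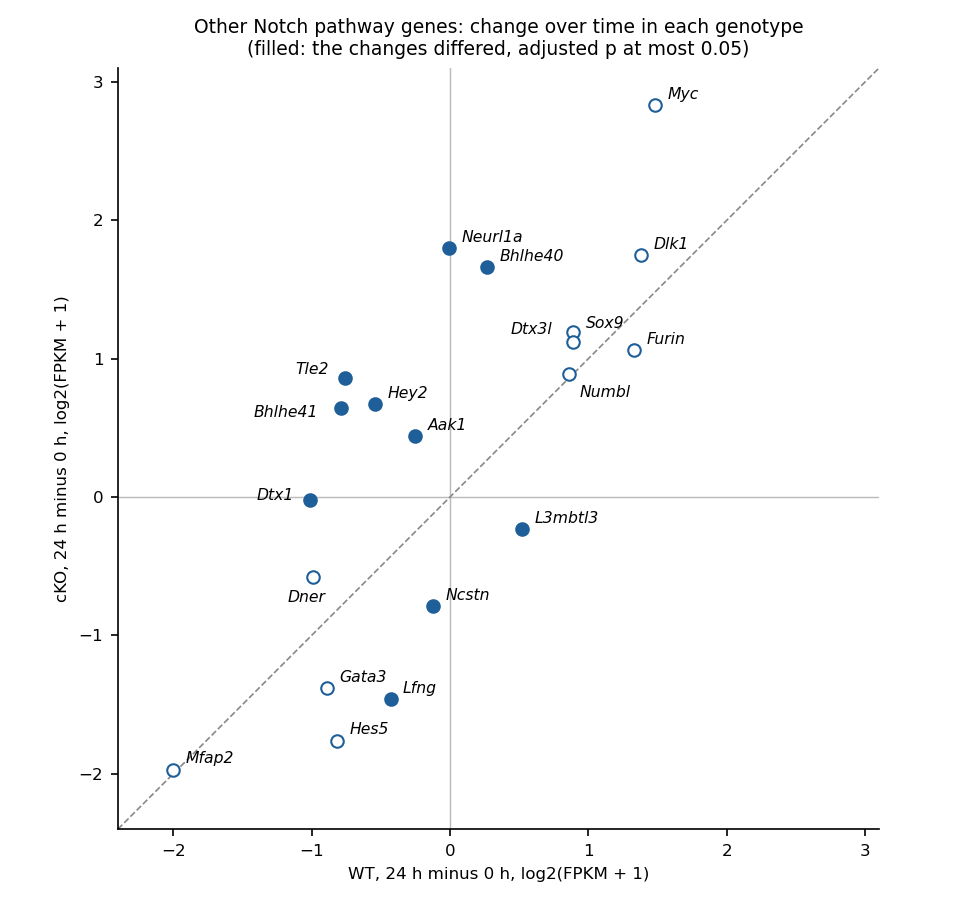
Log2 difference over time (24 h minus 0 h, log2(FPKM + 1) scale) in WT on the horizontal axis and in β8ITG-cKO on the vertical axis, for 20 other Notch pathway genes; filled points are genes whose changes differed between the genotypes (adjusted p at most 0.05), and the dashed line marks equal change. Neurl1a, Bhlhe40, Bhlhe41, Tle2 and Hey2 lie above the line, and Lfng, Ncstn and L3mbtl3 below it.

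At 24 h, 4 of 63 other pathway genes passed between the genotypes, all higher in β8ITG-cKO, beside 6.29% of all genes tested: Hey2, Neurl1a, Tle2 and Aak1. Hey2, a repressor closely related to Hey1, was at 0.18, 0.31 and 0.29 FPKM in WT 24 h and at 1.99, 2.57 and 2.15 in β8ITG-cKO 24 h (1.36 [1.01 to 1.71], adjusted p = 0.003). At 0 h it was at 0.44, 1.41 and 0.75 in WT and 0.75, 0.79 and 1.67 in β8ITG-cKO, which overlapped, and its rise over time in β8ITG-cKO (0.67, adjusted p = 0.0221) was lost without β8ITG-cKO 0 h replicate 1 or 2 or 24 h replicate 2 (0.0674 to 0.072) and after rescaling (0.0811). Neurl1a, a ubiquitin ligase that acts on Notch ligands in neurons, had 0.22, 0.71 and 1.23 FPKM in WT 24 h and 2.29, 3.49 and 3.82 in β8ITG-cKO 24 h (1.31 [0.71 to 1.92], adjusted p = 0.0266). In WT 0 h it had 0.20, 1.77 and 0.44. At 24 h Tle2 differed by 0.94 [0.47 to 1.41] (adjusted p = 0.0358), and Aak1, a kinase of clathrin-mediated uptake, by 0.60 [0.28 to 0.92] (adjusted p = 0.0478). WT 0 h replicate 2 was the library with the most photoreceptor marker RNA. Among the WT 0 h libraries, Neurl1a, Hey2 and Aak1 (8.91, 9.33 and 7.38 FPKM) were highest in it, and Tle2 (2.79, 2.37 and 2.40) was lowest in it. The count of 4 was 2 without WT 24 h replicate 1 or 2 or β8ITG-cKO 24 h replicate 1, and 1 without β8ITG-cKO 24 h replicate 2 or 3. Over all genes, 966 calls became 877, 650 and 539 in the fits that gave 2, and 439 and 525 in those that gave 1. Of the 4 calls, that of Hey2 held in the fits without each library. The Neurl1a call was lost without WT 24 h replicate 2 (adjusted p = 0.0775) or β8ITG-cKO 24 h replicates 2 (0.11) or 3 (0.109), that for Tle2 without any 1 library but WT 24 h replicate 2 (0.0719 to 0.123), and that for Aak1 without any 1 library but WT 24 h replicate 3 (0.089 to 0.188).

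These 4 genes were higher in the 24 h group that was also higher in photoreceptor markers. All 10 markers rose over time in β8ITG-cKO. Each β8ITG-cKO 24 h library carried a photoreceptor sum of 878 FPKM or more and each WT 24 h library 141 or less, so genotype and photoreceptor RNA cannot be told apart at 24 h. Endothelial marker sums were also higher in β8ITG-cKO at 24 h, at 9.71 to 10.8 FPKM against 1.86 to 4.01, with 1 of 4 tested passing. The part of retinal or endothelial RNA in the 4 calls was not tested.

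**Figure D5:**
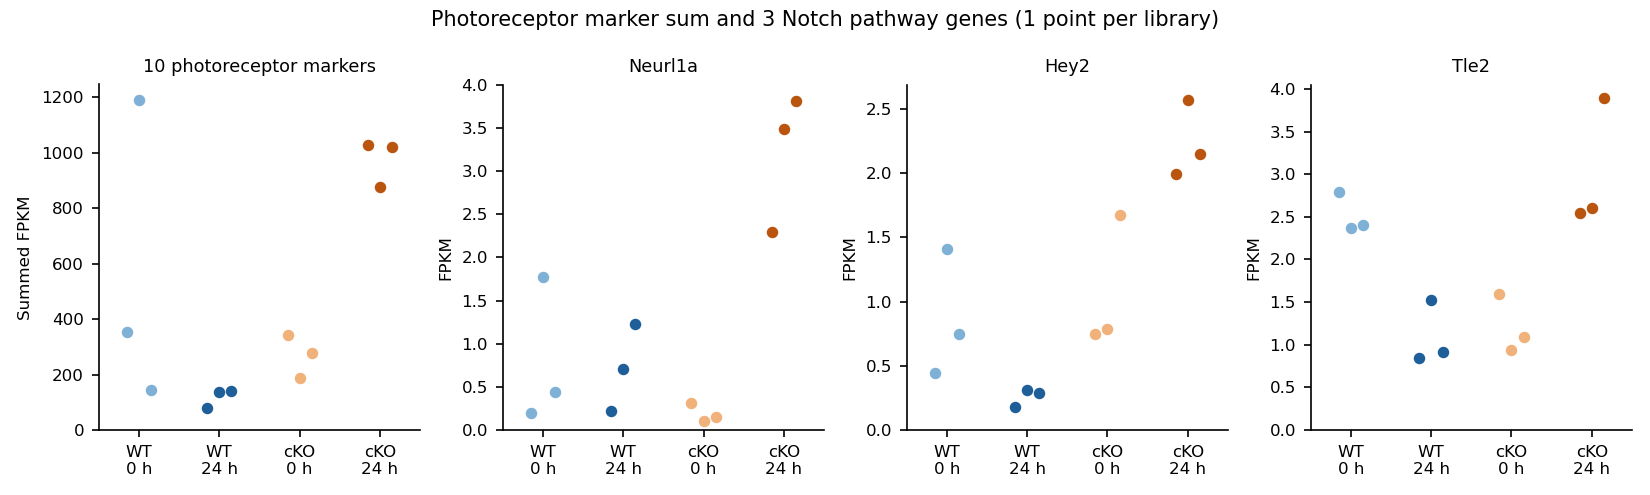
Summed FPKM of 10 photoreceptor markers, and FPKM of Neurl1a, Hey2 and Tle2, in each library (points) by genotype and time. The marker sum lay at 878 to 1029 in β8ITG-cKO 24 h and at 77.7 to 141 in WT 24 h, and WT 0 h replicate 2 reached 1191.

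At 0 h, 8 of 59 other pathway genes passed between the genotypes (3 higher and 5 lower in β8ITG-cKO), beside 6.94% of all genes tested: Lfng, Ncstn and Itch were higher, and Tle2, Dtx1, Bhlhe40, Bhlhe41 and Myc were lower. Itch, a ubiquitin ligase of Notch that was named after its values were seen, averaged 8.20 FPKM in WT and 12.1 in β8ITG-cKO (0.51, adjusted p = 0.0287). Its call was lost with the replicate block (adjusted p = 0.0879) and in 5 of 6 fits that left out 1 library (all but that without WT 0 h replicate 3, adjusted p 0.0564 to 0.132). The calls for Tle2 (adjusted p = 0.0424) and Dtx1 (0.0477) were lost with the replicate block (0.0863 and 0.129). Each was also lost in 5 of 6 fits that left out 1 library, with adjusted p of 0.0719 to 0.154 for Tle2 (all but that without β8ITG-cKO 0 h replicate 1) and 0.0945 to 0.149 for Dtx1 (all but that without WT 0 h replicate 3). The list count of 8 dropped to 2 without WT 0 h replicate 1 or β8ITG-cKO 0 h replicate 2 or 3, to 4 without WT 0 h replicate 2 and to 5 without β8ITG-cKO 0 h replicate 1. Over all genes, 1020 calls became 269, 271 and 136 in the fits that gave 2. They became 756 and 446 in those that gave 4 and 5.

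Some genes outside the pathway varied over the libraries much like its leading members, whatever their own level. Over the 12 libraries and 10880 genes averaging 2 FPKM or more, the log2 values correlating best with Notch2 were those of Atp1b3 (Pearson r = 0.992), Trim9 (0.983) and Cdc37l1 (0.980). Closest to Jag1 were Nup188 (0.975), Nup155 (0.974) and Kctd11 (0.972). Rbpj was nearest to A230070E04Rik (0.912), 5430416N02Rik (0.905) and Med9 (0.878), and Hes1 to Zfp251 (0.870), Homez (0.858) and Rbm5 (0.850). Libraries here share groups, and values are given as a description with no p. Atp1b3, a sodium pump subunit, averaged 267 and 270 FPKM at 0 h in WT and β8ITG-cKO and 118 and 109 at 24 h. Kctd11 averaged 1.38 and 4.62 FPKM at 0 h and 13.8 and 14.3 at 24 h.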

How the data were processed

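RNA from mouse lens capsules with attached LCs was sequenced in 12 libraries (SMARTer Stranded Total RNA-Seq Pico kit). The authors deposited FPKM from Cuffdiff 2.2.1 in 4 tables, 1 per pair of conditions; the processing notes also name FastQC, cutadapt 1.12, TopHat2 2.1.0, mm10 and GRCm38.p5. FPKM of a library were identical in each table that held it. The 8 columns of group averages and the columns of Cuffdiff group values, log2 fold changes, p-values and q values were not used. Whether counting used strand is not given in the sources used here, and loci that hold several genes are Cuffdiff bundles, so reads of overlapping genes may be shared.

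Each pair of conditions (6 libraries) was fitted with limma 3.58.1 (limma-trend, eBayes; R 4.3.3) on log2(FPKM + 1), limited to genes averaging 0.5 FPKM or more, with Benjamini-Hochberg adjustment over all genes tested. The pseudocount of 1 understates changes of low genes. The difference between the genotypes' changes over time was an interaction term over 12 libraries. The fit was checked on simulated data. Alternatives were a pseudocount of 0.1, no filter, a minimum mean of 2 FPKM, rescaling to the same median, a block for the replicate number, 1 fit over all groups, and each library left out. The additional criteria are those of the authors for calling a gene.

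The members and lists were chosen with earlier results of these data known. Named are all members, and wider pathway genes that passed with the additional criteria in a pair or passed the interaction (22 genes, of which the 20 with the largest differences); for likeness, the member with the highest mean in each role and Rbpj, with 3 genes each. Genes named outside this rule are marked. Some single-gene results are not reported here. Promoters are from RefSeq (GRCm38.p6). Tables and figures used Python 3.11.15, pandas 2.3.3, numpy 2.4.6 and matplotlib 3.10.9.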

Additional observations from a re-analysis of the deposited data

Results flagged for a closer look

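Of the 62 genes of the wider pathway tested, 12 changed over time differently in the genotypes by the interaction term of limma over 12 libraries, or 19.4%, where 9.39% of all genes passed. The count was 4 to 7 without any 1 of WT 0 h replicates 1 and 2, WT 24 h replicate 1 or the β8ITG-cKO libraries of either time. Over all genes, calls in those fits were 688 to 1063, from 1433 with every library. The 10 of them described here (adjusted p 0.00616 to 0.0471) are named because they passed it, so their number is no result. The value is the β8ITG-cKO change minus the WT change on the log2(FPKM + 1) scale. It was negative for Lfng (-1.03), L3mbtl3 (-0.74) and Ncstn (-0.67). L3mbtl3, a repressor that binds Rbpj, averaged 5.91 FPKM in WT 0 h, 8.86 in WT 24 h, 7.36 in β8ITG-cKO 0 h and 6.14 in β8ITG-cKO 24 h. It was positive for Aak1 (0.69), Dtx1 (0.99), Hey2 (1.20), Bhlhe40 (1.40), Bhlhe41 (1.42), Tle2 (1.62) and Neurl1a (1.82). Itch (-0.66, adjusted p = 0.0165) and Dtx3 (0.56, adjusted p = 0.0482) also passed, outside the rule for naming genes.

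The interaction of Bhlhe40, Bhlhe41 and Tle2 passed in all 12 fits that left out 1 library. That of Neurl1a was lost in 4 such fits (highest adjusted p = 0.0614), Dtx1, Hey2 and Ncstn in 7 each (0.0713, 0.075 and 0.0719), Aak1 in 8 (0.0674), L3mbtl3 in 9 (0.073) and Lfng in 10 (0.109). The replicate block also ended the calls of Lfng (0.0585), L3mbtl3 (0.06) and Aak1 (0.0525). Fits without WT 0 h replicate 2, the library with 1191 FPKM of photoreceptor markers, gave 0.96 for Dtx1 (adjusted p = 0.0604), 0.63 for Aak1 (0.0602), -0.67 for Ncstn (0.0503) and -0.70 for L3mbtl3 (0.0641), and adjusted p of 0.053 for Hey2 and 0.0903 for Lfng. All 10 photoreceptor markers also passed this interaction as higher in β8ITG-cKO, and their part in the values of Hey2, Tle2, Neurl1a and Aak1 was not tested. No member of the 10 Notch genes was among the results singled out.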

How the results depend on the processing

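Of the values of single genes under alternatives, 1004 kept direction and side of the threshold, 183 lost their call, 8 gained one and 33 changed sign, each of the last without a call. For the members, calls over time in WT numbered 4 (2 to 5 with 1 library left out). At 0 h the count of 1 became 0 with no filter, 2 with a minimum of 2 FPKM, 2 after rescaling, 0 in 1 fit over all groups and 0 with the replicate block (0 to 1 with 1 library left out). At 24 h and for the interaction, 0 became 0 to 1 with 1 library left out. For the wider pathway, the WT count of 23 became 12 with no filter (10 to 21 with 1 library left out). At 0 h, 8 became 3 with no filter and 3 with the replicate block (2 to 6). At 24 h, 4 became 2 with no filter, 1 with a minimum of 2 FPKM and 2 with the block (1 to 4). For the interaction, 12 became 7 with a minimum of 2 FPKM (4 to 12). Over all genes, WT calls went from 4500 to 3540 with no filter, while genes tested went from 15146 to 28774. At 0 h, 1020 became 254 with no filter. At 24 h, 966 became 823 with no filter, 574 with a minimum of 2 FPKM and 644 with the block. For the interaction, 1433 became 930 with that minimum. With 1 library left out, WT calls ran from 2512 to 5087 and 0 h calls from 136 to 756. Those at 24 h ran from 439 to 1108 and of the interaction from 688 to 1921.

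Sign changes after rescaling were Notch1 (-0.09) and Notch3 (-0.11) over time in β8ITG-cKO, Hey1 at 0 h (-0.00) and the interaction of Notch2 (-0.00). With 1 library left out, these log2 differences crossed 0. Over time, Rbpj ran from -0.38 to 0.04 in WT, and in β8ITG-cKO Notch3 ran from -0.07 to 0.11, Jag2 from -0.09 to 0.09, Dll1 from -0.27 to 0.73 and Hes1 from -0.31 to 0.13. Between genotypes at 0 h, Jag2 ran from -0.11 to 0.16 and Hey1 from -0.06 to 0.07. At 24 h, Notch1 ran from -0.19 to 0.04, Notch2 from -0.13 to 0.04, Jag1 from -0.14 to 0.54, Rbpj from -0.03 to 0.39, Hes1 from -0.13 to 0.31 and Hey1 from -0.13 to 0.50. For the interaction, Notch2 ran from -0.06 to 0.11, Dll1 from -0.65 to 0.35 and Hey1 from -0.15 to 0.49. The cause was not tested.

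Rescaling moved the median of all genes from 0.16 to -0.04 in WT and from 0.23 to 0.00 in β8ITG-cKO, and calls went from 3165 higher and 1335 lower to 2235 and 2393 in WT, and from 5394 and 1636 to 3236 and 3025 in β8ITG-cKO. Replicate numbers do not pair the samples: deviations of same-numbered libraries correlated at -0.22 to 0.08 in 18 pairs. The replicate block took the calls at 0 h from 1020 to 269 genes. With 3 libraries a group and no read counts, changes of low genes such as Notch3, Jag2 and Heyl are the least certain.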
